A study of Mus musculus with 96 samples.

Results

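The 9 RNAs described here are short noncoding RNAs of the cell: the Y RNAs Rny1 and Rny3, the vault RNA Vaultrc5, the minor spliceosomal RNAs Rnu11 and Rnu12, the RNase P RNA Rpph1 and its relative Rprl3, the RNase MRP RNA Rmrp and the 7SK RNA Rn7sk. They were chosen by name, as the rows of the count table that carry these symbols, and make up 9 of the 47373 genes in that table. All 9 passed the low-count filter in every comparison. The libraries came from the livers of 12 male B6C3F1 mice aged 10-11 weeks, of which 6 drank phenobarbital at 600 ppm for 7 days and 6 were controls at 0 ppm. Phenobarbital is a barbiturate that induces drug metabolism in the liver. Flash-frozen liver of mixed lobes from each mouse was divided, so that every mouse gave 1 library in each of 8 states. In the PureLink catalyst, AllPrep catalyst and heat-only states, tissue fixed for 3 months in 10% formalin and embedded in paraffin was incubated for 18 hours at 55 °C during RNA isolation, with an organocatalyst and a PureLink kit, with an organocatalyst and an AllPrep kit, or with an AllPrep kit and no catalyst. The TAE state was RNA isolated from the same kind of tissue and then heated for 30 minutes at 70 °C in tris-acetate EDTA. The 3-month formalin state had no such step. The 18-hour formalin state was moved to 70% ethanol up to 3 months after 18 hours in formalin, the ethanol state spent 3 months in 70% ethanol alone, and both were embedded in paraffin. The frozen state stayed frozen, and its RNA was isolated in another way than that of the catalyst and heat-only states, so the isolation method and the preservation cannot be told apart. How RNA was isolated from the TAE, 3-month formalin, 18-hour formalin and ethanol portions is not given in the sources used here. All fixed tissue had been frozen first, per the labels, which limits the portions as a model of tissue fixed fresh.

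These RNAs work as parts of ribonucleoprotein particles. Y RNAs are held by the Ro60 and La proteins and take part in RNA quality control. Vault RNA sits with the major vault protein in the vault particle. U11 and U12 recognise the splice sites of the rare minor introns. RNase P RNA is the catalytic part of the enzyme that trims the 5′ end of precursor transfer RNAs, and the MRP RNA is the related core of the enzyme that cleaves precursor ribosomal RNA. The 7SK RNA holds the elongation factor P-TEFb in an inactive complex with HEXIM proteins. RNA polymerase III makes most of them, while U11 and U12 are made by RNA polymerase II.

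Sequences of 7 of the RNAs follow. They were read from the GENCODE M21 transcripts of GRCm38, from 5′ to 3′ with T for U. The 2 Y RNAs are shown because they changed in parallel. They lie near each other on chromosome 6 on opposite strands (Rny1 at chr6:47788069-47788180, minus strand, and Rny3 at chr6:47781624-47781725, plus strand). Capitals mark the bases that are identical in the other RNA of the pair in a global alignment, 81 of 102 aligned positions or 79.4%. Both end in a run of T, the letters at which RNA polymerase III stops.
Rny1: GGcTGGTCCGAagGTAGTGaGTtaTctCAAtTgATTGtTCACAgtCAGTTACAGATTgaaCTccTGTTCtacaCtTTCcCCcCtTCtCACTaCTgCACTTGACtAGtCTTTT
Rny3: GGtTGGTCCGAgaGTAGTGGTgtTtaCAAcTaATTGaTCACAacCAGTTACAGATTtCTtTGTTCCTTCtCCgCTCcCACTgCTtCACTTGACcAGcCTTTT
Rpph1 (chr14:50807449-50807767, minus strand) and Rprl3 (chr8:3803069-3803358, minus strand) have the same base at 246 of 289 aligned positions (85.1%), and are shown because their levels diverged and their reads may be hard to tell apart. Capitals in their first 120 bases mark where they differ.
Rpph1, bases 1 to 120: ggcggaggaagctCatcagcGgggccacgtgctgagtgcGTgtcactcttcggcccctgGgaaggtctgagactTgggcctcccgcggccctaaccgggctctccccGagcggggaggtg
Rprl3, bases 1 to 120: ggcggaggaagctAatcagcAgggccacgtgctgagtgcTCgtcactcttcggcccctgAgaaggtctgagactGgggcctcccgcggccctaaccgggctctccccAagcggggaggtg
Rnu11 (chr4:132270080-132270213, minus strand) and Rnu12 (chr15:83149644-83149794, plus strand) each hold TTTTTG once on the transcript strand, shown in capitals, letters of the kind that Sm proteins bind. They are shown as the pair of one particle whose ratio changed with preservation. Of 4473 annotated RNAs of 100 to 200 nt 4.34% hold these letters on that strand and 8.36% on either strand.
Rnu11: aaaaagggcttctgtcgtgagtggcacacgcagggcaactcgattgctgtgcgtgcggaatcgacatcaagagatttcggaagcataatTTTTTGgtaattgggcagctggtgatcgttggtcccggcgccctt
Rnu12: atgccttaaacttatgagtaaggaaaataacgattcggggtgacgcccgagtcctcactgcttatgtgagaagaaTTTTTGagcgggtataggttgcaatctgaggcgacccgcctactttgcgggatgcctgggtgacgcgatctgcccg
Rn7sk (chr9:78175303-78175633, minus strand) has 3 GATC in its first 110 bases, shown in capitals, the letters of the HEXIM-binding motif at its 5′ end, shown for the regulatory part of the most abundant of the 9. GATC reads the same on both strands, and 25.7% of annotated RNAs of at least 110 nt hold it in their first 110 bases.
Rn7sk, bases 1 to 110: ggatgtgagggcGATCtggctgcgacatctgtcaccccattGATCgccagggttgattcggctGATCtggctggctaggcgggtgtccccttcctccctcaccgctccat

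The 96 libraries held 1264563 to 18442730 counts on genes, and the shallowest was the control animal 8A in 3-month formalin. None of the 9 RNAs had 0 counts in any library, and their lowest counts ran from 23 (Rnu11) to 7512 (Rn7sk). Together they took a median of 1.65% of the counts in 3-month formalin and 0.947% in frozen liver. Hepatocyte markers were high, with Alb at 31650.0 CPM and Apoa1 at 3922 CPM over all libraries, and no lymphocyte marker averaged more than 0.461 CPM. The highest mean of a marker was 183 CPM for stellate cells (Reln) and 182 CPM for sinusoidal endothelial cells (Stab2). It was 136 CPM for erythroid cells (Hbb-bs), 121 CPM for Kupffer cells (Cd5l) and 11.0 CPM for cholangiocytes (Sox9). Against frozen liver 5 of the 6 hepatocyte markers fell in 3-month formalin, where 28.7% of all genes tested fell. All 6 fell in the TAE portions, where 27.4% of all genes tested did. In bulk liver, fewer cells of a type and less RNA per cell cannot be told apart. The portions came from the same livers, and effects of preservation or isolation on the measured level cannot be told apart from these either. The summed level of these 6 markers ran from 23501 to 65158 CPM in 3-month formalin and from 48009.5 to 94432 CPM in frozen liver, and mitochondrially encoded genes took 9.92% of the counts in 3-month formalin and 2.57% in frozen liver. Their part in the comparisons of states was not tested. Levels are given as CPM, counts scaled to a common library size, after TMM scaling, which corrects library totals for composition, and differences as log2 fold changes ± standard error from edgeR, called at an adjusted p under 0.05. Scaling by library totals alone moved the median log2 fold change of all genes by 0.18 to 0.27 in the 18-hour formalin, TAE, heat-only and catalyst states against frozen, so differences of that size depend on the scaling.

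Per kilobase of annotated length, the RNAs spanned more than 2 orders of magnitude in frozen liver. The median level was 17526 CPM per kb for Rn7sk, 10615 for Rpph1, 4535 for Rmrp, 681 for Rprl3, 324 for Vaultrc5, 186 for Rny3, 83.5 for Rnu12, 79.8 for Rny1 and 39.4 for Rnu11. The ranges over 12 libraries of the first 5 did not overlap between neighbours in this order, while from Vaultrc5 down each overlapped the next. In 3-month formalin the order changed below Rmrp, with medians of 3604 CPM per kb for Vaultrc5, 2316 for Rny3, 1098 for Rny1, 645 for Rprl3, 456 for Rnu11 and 207 for Rnu12. There every RNA overlapped its neighbour in the order.

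**Figure D1:**
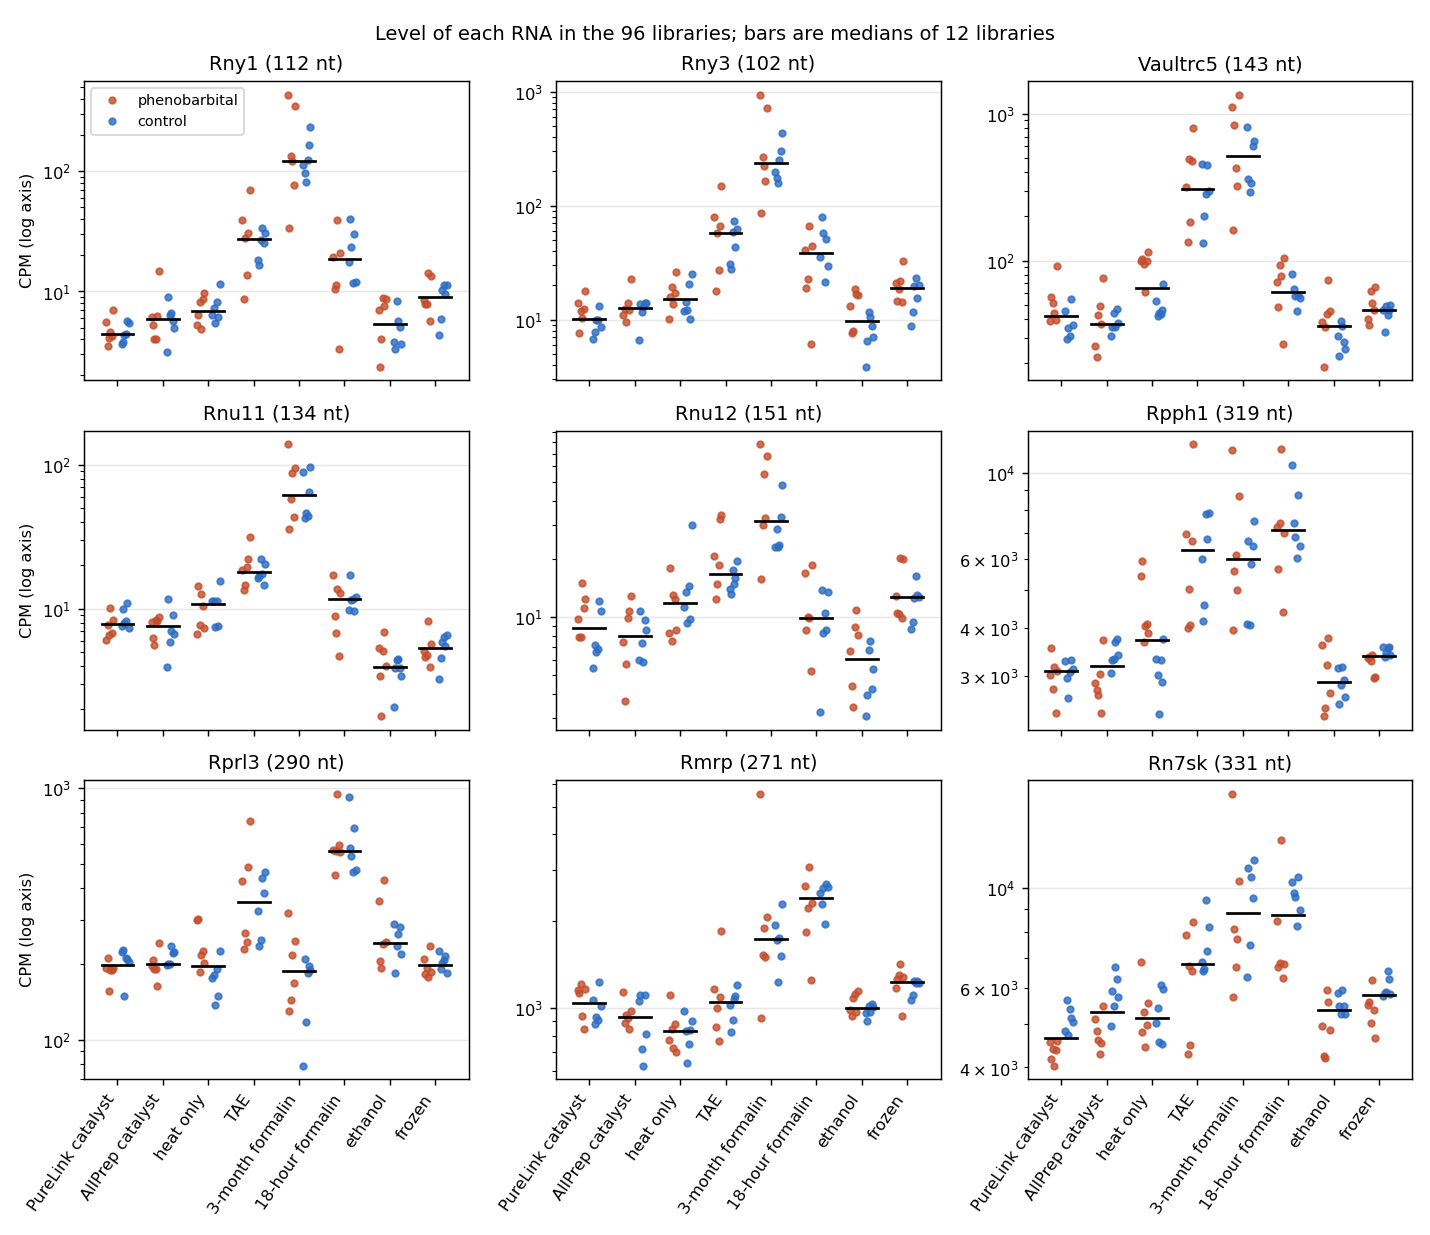
Level of each RNA in CPM (log axis) in the 8 states, with phenobarbital libraries left of control libraries and a bar at the median of 12 libraries. The 5 shortest RNAs have their highest median in 3-month formalin, where Rny3 reached a median of 236 CPM against 19.0 CPM in frozen liver. Rn7sk, the longest, also has its highest median there (8809 CPM, against 8706 CPM in 18-hour formalin). Rpph1, Rprl3 and Rmrp stand highest in 18-hour formalin.

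The comparison of states asked how each way of keeping the tissue changed the measured level of these RNAs. The 2 Y RNAs (ENSMUSG00000065701 and ENSMUSG00000064945) rose most in 3-month formalin, by about the same amount, and were near or under the frozen level in the heat-only and catalyst states. Rny3 had 6.72, 10.2 and 17.8 CPM in the PureLink catalyst libraries (lowest, median and highest of 12, here and below), 6.63, 12.6 and 22.6 with AllPrep catalyst, 10.1, 15.1 and 26.3 with heat only, 18.0, 58.0 and 149 with TAE, 85.9, 236 and 940.0 in 3-month formalin, 6.14, 38.0 and 79.2 in 18-hour formalin and 3.86, 9.72 and 18.4 in ethanol, against 8.82, 19.0 and 32.9 in frozen liver. The 3-month formalin and frozen ranges did not overlap, and the level was higher in 12 of 12 animals. In that state Rny3 rose by 4.14 ± 0.32 (adjusted p = 1.46e-11) and Rny1 by 4.16 ± 0.33 (adjusted p = 2.18e-11). They ranked 20 and 18 from the top among 13477 genes tested. Rny1 had 33.9, 123 and 435 CPM in 3-month formalin and 8.69, 27.3 and 70.1 with TAE, against 4.37, 8.94 and 14.3 in frozen liver. In 18-hour formalin both rose by about 1 on the log2 scale, 1.07 ± 0.28 for Rny3 and 1.11 ± 0.28 for Rny1, and they were higher in 10 and 11 of 12 animals. Animal 75C gave the lowest value, 6.14 CPM of Rny3. In ethanol both fell. Rny3 fell by 0.79 ± 0.19 (adjusted p = 0.0025) and Rny1 fell by 0.68 ± 0.21 (adjusted p = 0.0141), and they were lower in 11 and 11 of 12 animals. With AllPrep catalyst the log2 fold change against frozen was -0.50 ± 0.17 (adjusted p = 0.0152) for Rny3 and -0.51 ± 0.21 (adjusted p = 0.0489) for Rny1, and neither was called when libraries were scaled by totals alone, at -0.30 and -0.31.

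The median ratio of the Y RNAs to each other differed little between states. Per nucleotide, the median count of Rny3 was 2.49 times that of Rny1 in the PureLink catalyst libraries, 2.23 with AllPrep catalyst, 2.40 with heat only, 2.24 with TAE, 2.17 in 3-month formalin, 2.18 in 18-hour formalin and 2.08 in ethanol, against 2.21 in frozen liver. The ratio was above that of the same animal's frozen library in 5 of 12 animals in 3-month formalin and in 10 of 12 with PureLink catalyst. Among the mRNAs of their protein partners, Ro60, which encodes the Y RNA-binding ring protein, had a log2 fold change of 0.76 ± 0.08 (adjusted p = 8.24e-09) in 3-month formalin, while Ssb, which encodes the La protein that binds the 3′ end of new polymerase III transcripts, had -0.90 ± 0.09 (adjusted p = 4.17e-09). The nearest protein-coding gene, Pdia4, an endoplasmic reticulum disulfide isomerase 7961 nt from Rny1, fell by 1.31 ± 0.09 (adjusted p = 1.34e-12) in the same comparison.

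Vaultrc5 (ENSMUSG00000065145, chromosome 18, 36801866 to 36802008, plus strand, 143 nt) rose in 3-month formalin like the Y RNAs but stayed high after heating in TAE. It had 29.5, 41.8 and 92.5 CPM with PureLink catalyst, 22.0, 37.2 and 75.8 with AllPrep catalyst, 42.1, 65.4 and 115 with heat only, 132, 309 and 805 with TAE, 161, 515 and 1349 in 3-month formalin, 27.1, 61.4 and 104 in 18-hour formalin and 19.0, 35.7 and 73.9 in ethanol, against 33.0, 46.3 and 66.6 in frozen liver. The 3-month formalin and TAE ranges lay wholly above the frozen range. The log2 fold change against frozen was 3.69 ± 0.27 (adjusted p = 5.6e-12) in 3-month formalin and 2.90 ± 0.24 (adjusted p = 1.18e-10) with TAE, where it ranked 12 from the top among 13833 genes. Smaller rises came in 18-hour formalin, 0.45 ± 0.15 (adjusted p = 0.0193), and with heat only, 0.52 ± 0.13 (adjusted p = 0.00144). TAE against 3-month formalin gave -0.77 ± 0.31 (adjusted p = 0.0796), and -0.74 (adjusted p = 3.06e-05) with the animal as a block, with a lower level in 11 of 12 animals. In the same comparison Rny3 fell by 2.47 ± 0.34 (adjusted p = 2.87e-05) and Rny1 fell by 2.50 ± 0.34 (adjusted p = 1.91e-05), lower in 12 of 12 animals each. Per nucleotide, the median ratio of Vaultrc5 to Rny3 was 4.32 with TAE and 1.35 in 3-month formalin, against 1.78 in frozen liver. It was above the animal's own frozen value in 12 of 12 TAE libraries and below it in 12 of 12 3-month formalin libraries.

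Among the mRNAs of Ro and vault proteins 2 of 7 rose and 5 fell in 3-month formalin (median log2 fold change -0.46, against 0.03 over all genes tested). Mvp, which encodes the major vault protein, fell by 1.51 ± 0.16 (adjusted p = 3.32e-09) and the splicing factor gene Puf60 fell by 0.99 ± 0.07 (adjusted p = 2.21e-12). Over all genes tested there, 31.8% rose and 28.7% fell. With TAE 1 of 7 rose and 5 fell (median -0.27, against 0.04 over all genes, of which 31.6% rose and 27.4% fell). In ethanol 1 of 7 rose and 3 fell (median -0.06, against -0.01 over all genes, of which 17% rose and 15.8% fell). In ethanol Ro60 fell by 0.43 ± 0.08 (adjusted p = 0.000173) and Ybx1, which encodes an RNA-binding cold shock protein, fell by 0.17 ± 0.04 (adjusted p = 0.000442), whereas Puf60 had -0.05 ± 0.04 and Parp4, the vault poly(ADP-ribose) polymerase, 0.04 ± 0.06, neither past the threshold.

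The 2 minor spliceosomal RNAs differed, in that Rnu11 was called higher against frozen in 6 of the 7 states and Rnu12 in 2. Rnu11 (ENSMUSG00000077323) had 6.07, 7.82 and 10.9 CPM with PureLink catalyst, 3.92, 7.53 and 11.6 with AllPrep catalyst, 6.61, 10.8 and 15.6 with heat only, 13.4, 18.0 and 31.4 with TAE, 35.9, 61.1 and 138 in 3-month formalin, 4.69, 11.6 and 17.2 in 18-hour formalin and 1.79, 3.94 and 6.87 in ethanol, against 3.22, 5.28 and 8.25 in frozen liver. The 3-month formalin libraries lay above all libraries of the other states. Rnu12 (ENSMUSG00000065176) had 5.46, 8.80 and 15.1 CPM with PureLink catalyst, 3.66, 7.99 and 12.8 with AllPrep catalyst, 7.55, 11.9 and 30.0 with heat only, 12.4, 16.7 and 33.8 with TAE, 15.7, 31.3 and 78.2 in 3-month formalin, 3.22, 9.90 and 18.6 in 18-hour formalin and 3.06, 6.04 and 10.9 in ethanol, against 8.67, 12.6 and 20.1 in frozen liver. Its 3-month formalin range overlapped the frozen range. Against frozen Rnu11 rose by 1.07 ± 0.17 (adjusted p = 1.72e-05) in 18-hour formalin, by 3.70 ± 0.21 (adjusted p = 8.45e-14) in 3-month formalin, 1.83 ± 0.14 (adjusted p = 2.03e-11) with TAE, 0.92 ± 0.15 (adjusted p = 1.38e-05) with heat only, 0.49 ± 0.15 (adjusted p = 0.00727) with AllPrep catalyst and 0.60 ± 0.12 (adjusted p = 0.000173) with PureLink catalyst. Rnu12 rose by 1.56 ± 0.21 (adjusted p = 2.78e-07) in 3-month formalin and 0.55 ± 0.16 (adjusted p = 0.00502) with TAE. It fell by 1.08 ± 0.18 (adjusted p = 5e-05) in ethanol. With AllPrep catalyst the log2 fold change was -0.65 ± 0.17 (adjusted p = 0.00272) and with PureLink catalyst -0.47 ± 0.15 (adjusted p = 0.0114), the PureLink call being lost with library totals alone (-0.20). In ethanol it ranked 5 from the bottom among 13908 genes tested. In 18-hour formalin Rnu12 was the one RNA of the 9 that was not called, at -0.30 ± 0.20 (adjusted p = 0.241) and -0.32 (adjusted p = 0.0142) with the animal as a block.

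Per nucleotide, the ratio of Rnu12 to Rnu11 was below the animal's own frozen value in 12 of 12 animals in each of the 7 preserved states. Its median was 1.02 with PureLink catalyst, 0.991 with AllPrep catalyst, 1.08 with heat only, 0.854 with TAE, 0.468 in 3-month formalin, 0.829 in 18-hour formalin and 1.38 in ethanol, against 2.14 in frozen liver. The 3-month formalin ratios, 0.23 to 0.67, lay wholly below the frozen ones, 1.72 to 3.11. Within each library depth and scaling cancel in this ratio. Rnu11 lies wholly inside Gm28872, a lincRNA on the other strand with 186 counts over the 96 libraries, and Rnu12 lies 260 nt from Poldip3, whose log2 fold change in 3-month formalin was -0.0032 ± 0.07. Of the mRNAs of minor spliceosome proteins 1 of 11 rose and 5 fell in 3-month formalin (median log2 fold change -0.27, against 0.03 over all genes, of which 31.8% rose and 28.7% fell). In 18-hour formalin 1 of 11 rose and 6 fell (median -0.24, against -0.01 over all genes, of which 20.5% rose and 20.6% fell). Snrnp35, which encodes a protein of the U11/U12 particle, fell by 0.91 ± 0.16 (adjusted p = 2.44e-05) in 3-month formalin and had a log2 fold change of -0.52 ± 0.11 (adjusted p = 0.00032) in 18-hour formalin. Rnpc3, which encodes the protein that joins U11 and U12, fell by 0.52 ± 0.07 (adjusted p = 1.14e-06) in 18-hour formalin and rose by 0.51 ± 0.07 (adjusted p = 1.45e-06) with PureLink catalyst.

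**Figure D2:**
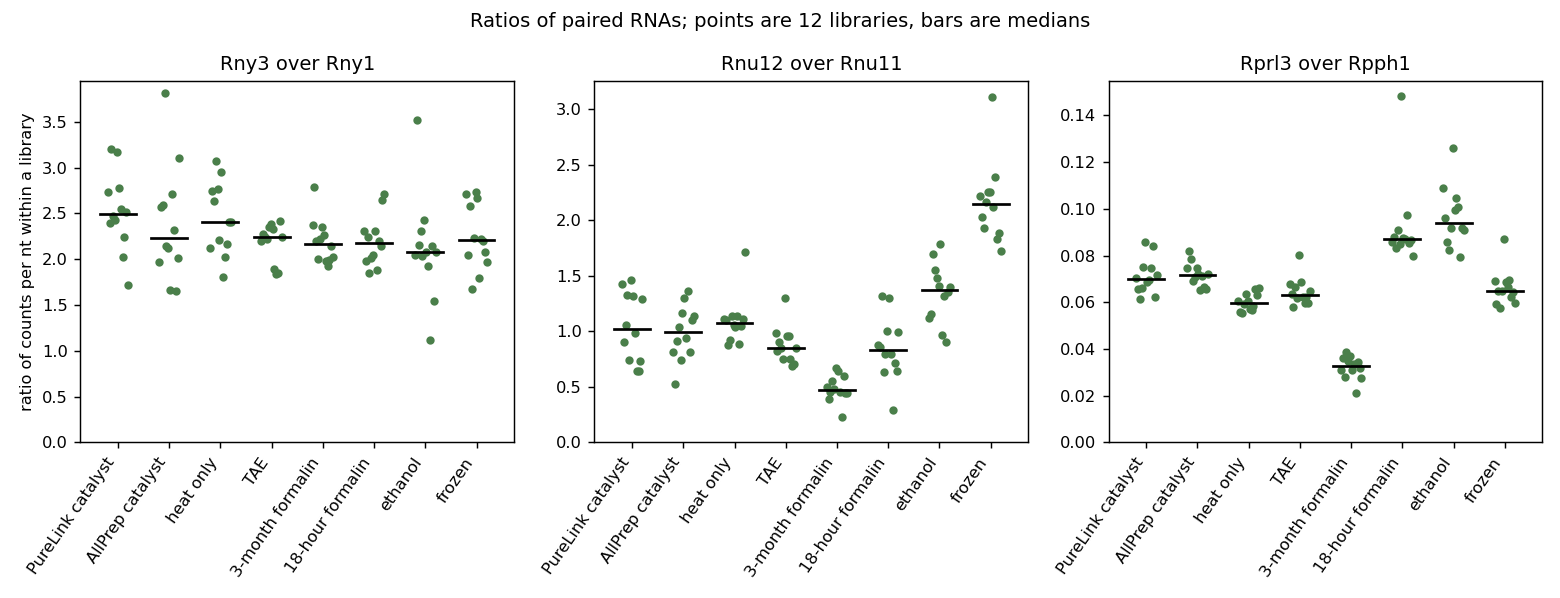
Ratio of counts per nucleotide of Rny3 over Rny1, Rnu12 over Rnu11 and Rprl3 over Rpph1 in each of 12 libraries per state, with bars at the medians. The medians of the Rny3 ratio lie between 2.08 and 2.49, the Rnu12 ratio is highest in frozen liver (median 2.14) and the Rprl3 ratio is lowest in 3-month formalin (median 0.0327).

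Rpph1 (ENSMUSG00000092837), the second most abundant of the 9 per length, rose in both formalin states and with TAE. Elsewhere its median was closer to frozen. It had 2419.7, 3089 and 3546 CPM with PureLink catalyst, 2413, 3179 and 3738 with AllPrep catalyst, 2397, 3706 and 5945 with heat only, 3994, 6339 and 11825 with TAE, 3948, 5989.8 and 11414 in 3-month formalin, 4395, 7119 and 11492 in 18-hour formalin and 2368, 2892 and 3754 in ethanol, against 2973, 3386 and 3573 in frozen liver. All libraries of the 2 formalin states and of TAE lay above all frozen libraries. The log2 fold change against frozen was 1.14 ± 0.11 (adjusted p = 1.23e-08) in 18-hour formalin, 0.93 ± 0.13 (adjusted p = 1.18e-06) in 3-month formalin and 0.93 ± 0.14 (adjusted p = 3.25e-06) with TAE. Between 3-month and 18-hour formalin it was -0.24 ± 0.17 (adjusted p = 0.247). Between TAE and 3-month formalin it was 0.01 ± 0.18 (adjusted p = 0.973), with a 95% interval from -0.36 to 0.39. With library totals alone the heat-only difference from frozen was called, at 0.40 (edgeR adjusted p = 0.00194), against 0.15 and uncalled after TMM scaling. The AllPrep catalyst difference was likewise called, at 0.14 (edgeR adjusted p = 0.0425), against -0.07 and uncalled.

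Rprl3 (ENSMUSG00000088025), whose name marks it as RNase P RNA-like, took another course. It had 149, 199 and 227 CPM with PureLink catalyst, 163, 199.5 and 243 with AllPrep catalyst, 137, 196 and 302 with heat only, 230.4, 354 and 737 with TAE, 78.8, 187 and 320.4 in 3-month formalin, 451, 564 and 949.9 in 18-hour formalin and 184, 243 and 430.2 in ethanol, against 178, 198 and 235 in frozen liver. The 18-hour formalin libraries lay above all frozen and all 3-month formalin libraries. The gene rose by 1.60 ± 0.11 (adjusted p = 5.86e-11) in 18-hour formalin and by 0.40 ± 0.11 (adjusted p = 0.00486) in ethanol, where 4 of the other RNAs fell. In 3-month formalin the difference from frozen was -0.11 ± 0.14 (adjusted p = 0.514), with a 95% interval from -0.38 to 0.17, and the level was higher in 5 of 12 animals. Against 18-hour formalin it fell by 1.74 ± 0.17 (adjusted p = 1.05e-08), rank 11 from the bottom among 13214 genes. TAE against 3-month formalin gave a rise of 1.03 ± 0.19 (adjusted p = 0.0006), in 12 of 12 animals.

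The median ratio of Rprl3 to Rpph1 per nucleotide was 0.07 with PureLink catalyst, 0.0717 with AllPrep catalyst, 0.0598 with heat only, 0.0629 with TAE, 0.0327 in 3-month formalin, 0.087 in 18-hour formalin and 0.0938 in ethanol, against 0.0648 in frozen liver. It was above the animal's own frozen value in 12 of 12 ethanol and 12 of 12 18-hour formalin libraries, and below it in 12 of 12 3-month formalin libraries. Because the 2 RNAs share long identical stretches, and the tool that counted reads is not given in the sources used here, part of either count could belong to the other gene. Rpph1 also overlaps Ccnb1ip1 on the same strand over 284 nt, but that gene held 128 counts over the 96 libraries. Of the mRNAs of RNase P and MRP proteins 0 of 11 rose and 6 fell in 3-month formalin (median log2 fold change -0.28, against 0.03 over all genes, of which 31.8% rose and 28.7% fell). In 18-hour formalin 0 of 11 rose and 3 fell (median -0.04, against -0.01 over all genes), a share of falls near the 20.6% of all genes. With TAE 0 of 11 rose and 8 fell (median -0.48, against 0.04 over all genes, of which 27.4% fell), and with PureLink catalyst 1 of 11 rose and 7 fell (median -0.32, against 0.03 over all genes, of which 31.5% rose and 27.7% fell). Pop1, which encodes the large protein subunit shared by both enzymes, fell by 0.93 ± 0.14 (adjusted p = 1.77e-06) in 3-month formalin, and Rpp25l, related to the subunit gene Rpp25, fell by 1.02 ± 0.15 (adjusted p = 1.07e-06). Rpp14, another subunit gene, had -0.03 ± 0.09 and did not pass the threshold.

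Rmrp (ENSMUSG00000088088, chr4:43492788-43493058, minus strand, 271 nt) rose in both formalin states and fell after incubation at 55 °C. It had 846, 1035 and 1224 CPM with PureLink catalyst, 628, 931 and 1130.3 with AllPrep catalyst, 642, 831 and 1107 with heat only, 765, 1050.2 and 1854 with TAE, 919, 1733 and 5541 in 3-month formalin, 1244, 2410.2 and 3071 in 18-hour formalin and 900.1, 993 and 1140.0 in ethanol, against 932, 1229 and 1414 in frozen liver. The highest 3-month formalin value came from animal 18B and stood far above the median of that state. Against frozen liver the log2 fold change was 0.95 ± 0.10 (adjusted p = 5.53e-08) in 18-hour formalin and 0.74 ± 0.18 (adjusted p = 0.00105) in 3-month formalin. It was -0.55 ± 0.08 (adjusted p = 2.25e-06) with heat only, lower in 12 of 12 animals, -0.36 ± 0.09 (adjusted p = 0.00122) with AllPrep catalyst, -0.21 ± 0.07 (adjusted p = 0.0154) with PureLink catalyst and -0.23 ± 0.06 (adjusted p = 0.0025) in ethanol. With library totals alone the AllPrep call was lost, at -0.15, and the PureLink difference turned to 0.06. Rmrp overlaps Ccdc107 on the opposite strand over 159 nt. Ccdc107 averaged 28.4 CPM and changed by -0.89 ± 0.26 (adjusted p = 0.00689) with heat only against 3-month formalin. The strand setting of the counting is not given, so reads of the 2 genes in that stretch cannot be told apart.

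Rn7sk (ENSMUSG00000065037), the most abundant of the 9 per length, varied least between states. It had 4033, 4655 and 5635 CPM with PureLink catalyst, 4294, 5298 and 6667 with AllPrep catalyst, 4448, 5162 and 6840.3 with heat only, 4274, 6776 and 9418 with TAE, 5726, 8809 and 16196 in 3-month formalin, 6304, 8706 and 12757 in 18-hour formalin and 4195, 5372 and 5951 in ethanol, against 4645, 5801 and 6558 in frozen liver. The highest and lowest state medians differed 1.89-fold, compared with 27.9-fold for Rny1 and 14.4-fold for Vaultrc5. It rose by 0.73 ± 0.13 (adjusted p = 1.91e-05) in 3-month formalin, 0.61 ± 0.09 (adjusted p = 8.83e-06) in 18-hour formalin and 0.30 ± 0.10 (adjusted p = 0.0128) with TAE, and fell by 0.26 ± 0.05 (adjusted p = 0.000171) with PureLink catalyst, a call that was lost with library totals alone. Among 8 mRNAs of the 7SK particle and P-TEFb 2 of 8 rose and 2 fell in 3-month formalin (median log2 fold change -0.04, against 0.03 over all genes), close to the 31.8% and 28.7% of all genes. Ccnt1, which encodes the cyclin T1 subunit of P-TEFb, rose by 0.54 ± 0.07 (adjusted p = 3.3e-07). Larp7, which encodes the protein that binds and stabilises 7SK RNA, fell by 0.42 ± 0.11 (adjusted p = 0.00137) and the kinase gene Cdk9 fell by 0.30 ± 0.08 (adjusted p = 0.00256), while Ccnt2 (0.10 ± 0.08) and Hexim1 (0.07 ± 0.09) did not pass the threshold. Of the 32 mRNAs of RNA polymerase III and its factors 8 of 32 rose and 15 fell in 3-month formalin (median log2 fold change -0.16, against 0.03 over all genes, of which 31.8% rose and 28.7% fell). Gtf3c2, a TFIIIC subunit gene, rose by 1.00 ± 0.07 (adjusted p = 1.2e-12) and Polr3a, the largest polymerase III subunit gene, fell by 0.85 ± 0.08 (adjusted p = 1.75e-09).

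Counted over all 9, the calls in the formalin and TAE states were rises and most in ethanol were falls, while the balance in the catalyst states depended on the scaling. In 3-month formalin against frozen liver 8 of the 9 RNAs rose and 0 fell, against 31.8% and 28.7% of the 13477 genes tested. In 18-hour formalin against frozen liver 8 of the 9 RNAs rose and 0 fell, against 20.5% and 20.6% of the 13882 genes tested. With TAE against frozen liver 8 of the 9 RNAs rose and 0 fell, against 31.6% and 27.4% of the 13833 genes tested. With heat only against frozen liver 2 of the 9 RNAs rose and 1 fell, against 28.4% and 28.6% of the 13889 genes tested. With AllPrep catalyst against frozen liver 1 of the 9 RNAs rose and 4 fell, against 27.8% and 22.6% of the 13997 genes tested. With PureLink catalyst against frozen liver 1 of the 9 RNAs rose and 5 fell, against 31.5% and 27.7% of the 14132 genes tested. With library totals alone, 3 rose and 1 fell with AllPrep catalyst, where 7171 of the 13997 genes tested rose and 1499 fell. With PureLink catalyst 2 rose and 2 fell on that scaling, where 8180 of the 14132 genes tested rose and 1726 fell. In ethanol against frozen liver 1 of the 9 RNAs rose and 4 fell, against 17% and 15.8% of the 13908 genes tested. With the animal as a block all 9 were called in ethanol, as were 7370 of the 13908 genes tested. Newly called were Vaultrc5 at -0.40 (adjusted p = 0.000309), Rnu11 at -0.40 (adjusted p = 0.00475), Rpph1 at -0.17 (adjusted p = 0.00326) and Rn7sk at -0.10 (adjusted p = 0.0118). The block added Rny1 with heat only at -0.32 (adjusted p = 0.0377), Vaultrc5 with AllPrep catalyst at -0.25 (adjusted p = 0.00199) and Rpph1 with PureLink catalyst at -0.14 (adjusted p = 0.00189). Of all genes it called 9274 of 13889 with heat only, 8849 of 13997 with AllPrep catalyst and 10068 of 14132 with PureLink catalyst. All 7 comparisons share the frozen libraries. The 18-hour formalin state differed from ethanol in the formalin step. In 18-hour formalin against ethanol 9 of the 9 RNAs rose and 0 fell, against 21.5% and 20.9% of the 13736 genes tested. Rny3 rose by 1.88 ± 0.31 (adjusted p = 2.8e-05) and Rn7sk by 0.72 ± 0.10 (adjusted p = 2.19e-06), the largest and smallest of the 9 differences. In 3-month against 18-hour formalin 5 of the 9 RNAs rose and 1 fell, against 22.3% and 23% of the 13214 genes tested. Rmrp in that comparison stood at -0.23 ± 0.20 (adjusted p = 0.366), and -0.35 (adjusted p = 0.0258) with the animal as a block, or -0.49 (edgeR adjusted p = 0.00448) without the 3-month formalin library of 18B.

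**Figure D3:**
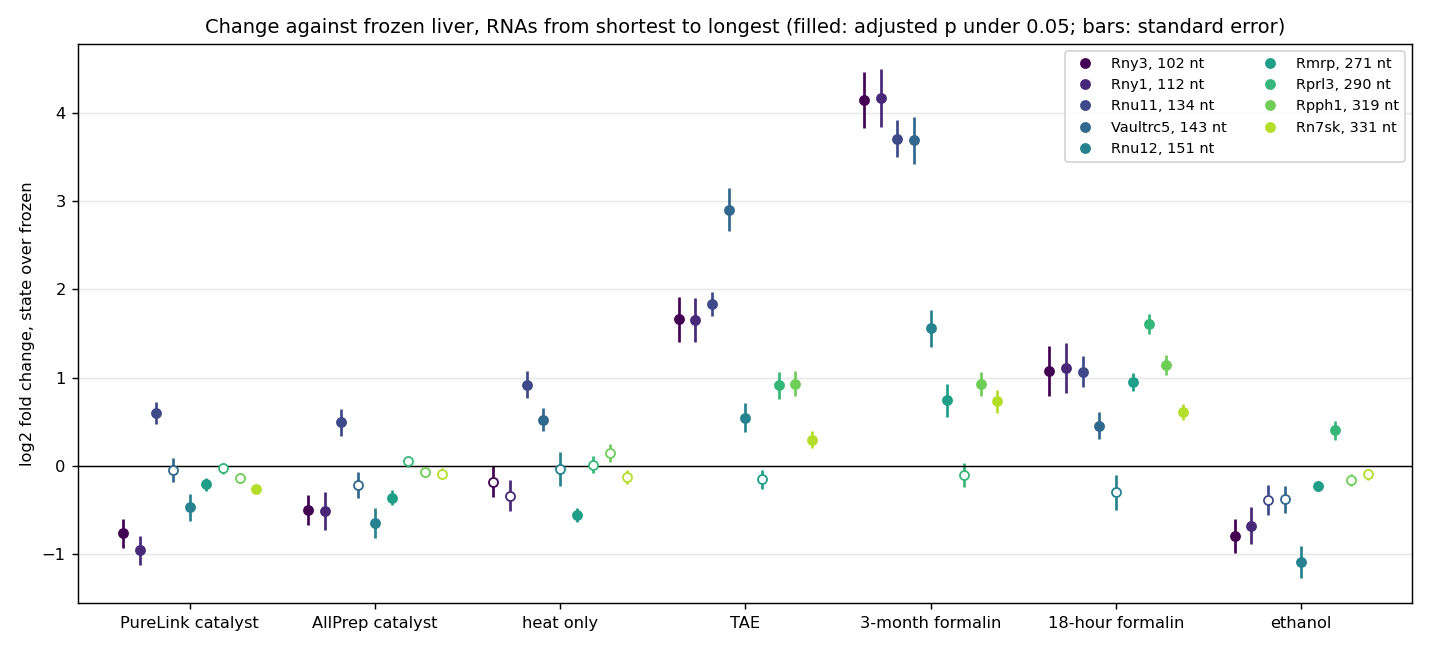
Log2 fold change of each RNA in 7 preserved states over frozen liver, with standard errors, ordered from the shortest to the longest RNA within a state (filled points have an adjusted p under 0.05). In 3-month formalin the 4 shortest stand between 3.69 and 4.16 and the 4 longest between -0.11 and 0.93.

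The change in 3-month formalin differed between the shorter and the longer RNAs. The 5 RNAs of 102 to 151 nt had log2 fold changes of 1.56 to 4.16, and the 4 of 271 to 331 nt had -0.11 to 0.93. The 112 other tested genes of up to 200 nt had a median of 2.56 (interquartile range 1.19 to 3.58), the 67 of 201 to 400 nt 0.15 (-0.43 to 1.30) and the 12805 above 1000 nt 0.03. Rny1, Rny3, Vaultrc5 and Rnu11 lay above the interquartile range of their length class, and the other 5 lay within that of theirs. With TAE the medians were 1.10 up to 200 nt and 0.39 from 201 to 400 nt. There Vaultrc5, Rnu11, Rpph1 and Rprl3 lay above the interquartile range of their class and Rnu12 below it. In 18-hour formalin the step was 0.77 against -0.05, and Rpph1, Rprl3, Rmrp and Rn7sk, all over 200 nt, lay above the interquartile range of their class (-0.29 to 0.35), while Rnu12 lay below that of its own. In ethanol the classes had medians of -0.07 and -0.04. With PureLink catalyst the shorter class had a median of 0.58 and 67 of 114 genes called higher. Rny1 (-0.95 ± 0.16), Rny3 (-0.76 ± 0.16) and Rnu12 (-0.47 ± 0.15) fell there. Library-to-library spread was wide in 3-month formalin, where the highest Rny1 value was 12.8 times the lowest, against 3.26 times in frozen liver. Averaged over the 5 shorter RNAs, animals 18B, 80B and 90C stood highest and 18D lowest. Leaving out 18B, the library with the highest share of its counts on the 9 RNAs, or the shallow library of 8A, gave 8 calls in 3-month formalin against frozen in each case.

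**Figure D4:**
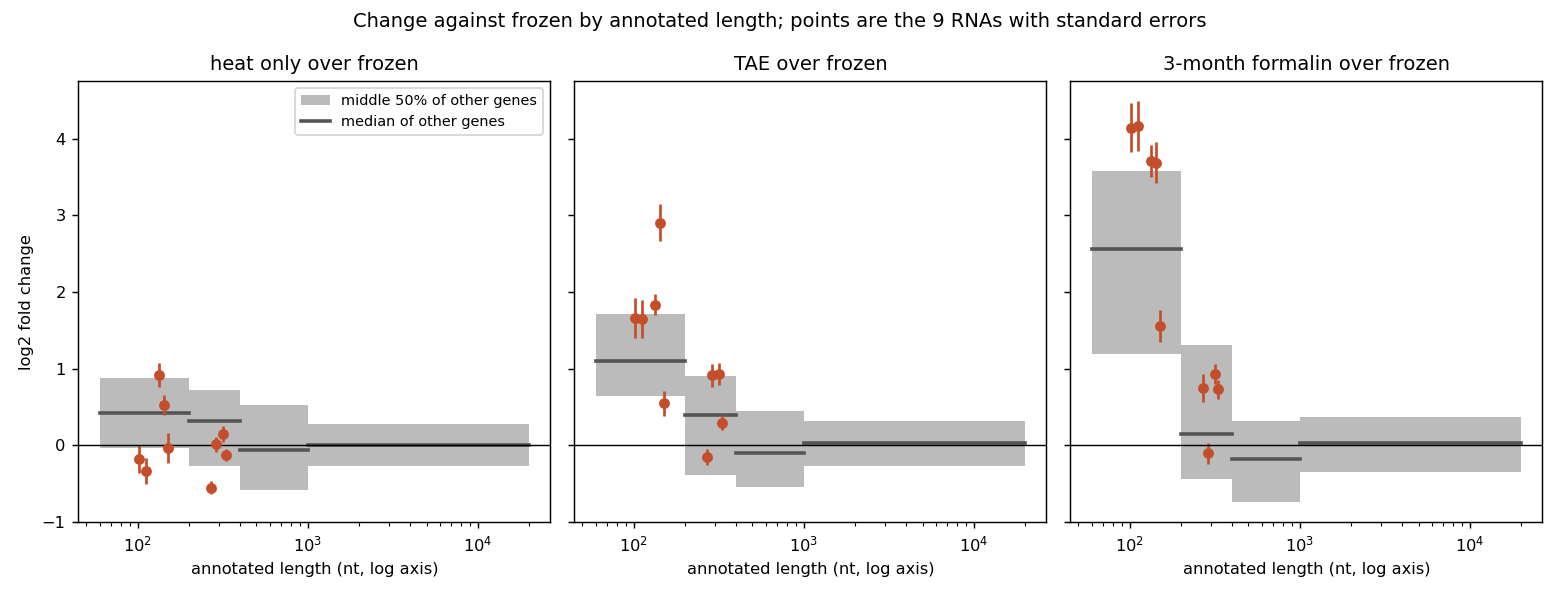
Log2 fold change over frozen liver against annotated length (log axis) for heat only, TAE and 3-month formalin. Points are the 9 RNAs with standard errors, and grey boxes with a line give the interquartile range and median of all other tested genes in 4 length classes. In 3-month formalin the shortest class has a median of 2.56 and the RNAs of 271 to 331 nt lie near the second class.

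Genes whose pattern over the 7 comparisons with frozen was most like that of each RNA were found by the root mean square difference in log2 fold change, among 11748 named genes tested in all 7 with a mean of at least 1 CPM. The nearest were Snora68 (0.519) and Snord13 (0.679) for Rny1 and Snora68 (0.499) and Snord13 (0.626) for Rny3, all small nucleolar RNAs of 104 to 131 nt. Rny1 and Rny3 were far nearer to each other (0.105) than to any of these. For Vaultrc5 the nearest were Snora21 (0.627) and Snora31 (0.672), for Rnu11 Snora31 (0.333) and Snora21 (0.383), and for Rnu12 Snord118 (0.328) and Fcer1g (0.365), which are small nucleolar RNAs except Fcer1g, the mRNA of an Fc receptor chain. The longer RNAs had mRNAs as their nearest, namely Rps16 (0.227) and Rpl39 (0.237) for Rpph1, Pkhd1l1 (0.401) and Adgrd1 (0.414) for Rprl3, Wfdc21 (0.271) and Fbln5 (0.278) for Rmrp and Rpl27a (0.0792) and Gngt2 (0.0993) for Rn7sk. Rps16, Rpl39 and Rpl27a are ribosomal protein genes. Of 24 other short noncoding RNAs looked for, 20 were in the table and 2 or 3 passed the filter in a comparison. The 7S RNA gene Rn7s6 (291 nt) rose by 3.36 ± 0.24 (adjusted p = 5.64e-12) in 3-month formalin. With TAE Rn7s6 rose by 2.53 ± 0.28 (adjusted p = 1.89e-08). The telomerase RNA gene Terc (423 nt) rose by 2.15 ± 0.18 (adjusted p = 1.21e-10) in 3-month formalin. In that state tested genes of 201 to 400 nt, other than the RNAs described here, had an interquartile range of -0.43 to 1.30. Those of 401 to 1000 nt had -0.74 to 0.31. Rn7s6 and Terc lay above the range of their class, whereas Rpph1, Rprl3, Rmrp and Rn7sk lay within theirs.

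The treatments meant to reverse formalin adducts were then compared with untreated 3-month formalin. With PureLink catalyst against 3-month formalin 0 of the 9 RNAs rose and 8 fell, against 30.8% and 29% of the 13556 genes tested. With AllPrep catalyst against 3-month formalin 0 of the 9 RNAs rose and 8 fell, against 23.8% and 23.6% of the 13433 genes tested. With heat only against 3-month formalin 0 of the 9 RNAs rose and 8 fell, against 23.5% and 23.3% of the 13283 genes tested. With TAE against 3-month formalin 1 of the 9 RNAs rose and 5 fell, against 7.89% and 9.42% of the 13296 genes tested. The Rny1 log2 fold change was -5.08 ± 0.32 (adjusted p = 2.26e-12) with PureLink catalyst, the lowest of all genes tested, -4.67 ± 0.35 (adjusted p = 1.18e-10) with AllPrep catalyst, -4.45 ± 0.32 (adjusted p = 1.37e-10) with heat only and -2.50 ± 0.34 (adjusted p = 1.91e-05) with TAE, each lower in 12 of 12 animals. Vaultrc5 stood at -3.70 ± 0.28 (adjusted p = 3e-11) with PureLink catalyst, -3.89 ± 0.29 (adjusted p = 1.19e-10) with AllPrep catalyst and -3.11 ± 0.26 (adjusted p = 1.46e-09) with heat only. Rprl3 was the RNA not called in these 3 comparisons, at 0.11 ± 0.14 with PureLink catalyst, 0.17 ± 0.14 with AllPrep catalyst and 0.17 ± 0.15 with heat only. Rn7sk, the longest, had -0.96 ± 0.13 (adjusted p = 5.13e-07) with PureLink catalyst, -0.81 ± 0.13 (adjusted p = 2.29e-05) with AllPrep catalyst and -0.80 ± 0.14 (adjusted p = 4.19e-05) with heat only. With TAE it stood at -0.42 ± 0.15 (adjusted p = 0.0552), or -0.39 (adjusted p = 6.75e-05) with the animal as a block. These comparisons share the 3-month formalin libraries. Since the isolation method of those libraries is not given, the isolation and the incubation cannot be told apart in the catalyst and heat-only comparisons.

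AllPrep catalyst and heat only differed in the catalyst and shared kit, time and temperature. With AllPrep catalyst against heat only 0 of the 9 RNAs rose and 1 fell, against 0.623% and 0.268% of the 13807 genes tested. The call was Vaultrc5, which had 22.0, 37.2 and 75.8 CPM with AllPrep catalyst and 42.1, 65.4 and 115 CPM with heat only. The ranges overlapped, and the log2 fold change was -0.77 ± 0.17 (adjusted p = 0.0232). In phenobarbital livers Vaultrc5 averaged 42.2 ± 19.3 CPM with AllPrep catalyst and 95.3 ± 18.0 CPM with heat only, and in control livers 38.4 ± 6.05 CPM and 49.7 ± 10.4 CPM (SD, n = 6 each). Both treatments were lower with AllPrep catalyst, phenobarbital by more, and whether the catalyst difference depends on phenobarbital was not tested. Mitochondrially encoded genes took 5.00% of the counts with AllPrep catalyst and 10.8% with heat only in phenobarbital livers, and 4.68% and 5.82% in control livers, and their part in this difference was not tested. Rny3 (-0.35 ± 0.17), Rnu11 (-0.46 ± 0.16) and Rnu12 (-0.64 ± 0.21) were also lower and uncalled. They passed with the animal as a block, at -0.34 (adjusted p = 0.0215), -0.44 (adjusted p = 0.0239) and -0.60 (adjusted p = 0.0146). The block called 1930 of the 13807 genes there. Rprl3 and Rn7sk had intervals of -0.21 to 0.22 and -0.18 to 0.19 (95%). PureLink and AllPrep catalyst differed in the kit. With PureLink against AllPrep catalyst 0 of the 9 RNAs rose and 0 fell, against 1.15% and 1.17% of the 14124 genes tested. At an unadjusted edgeR p under 0.05 2 RNAs passed, as did 3405 of the 14124 genes. DESeq2 called 1 of the RNAs and 961 of all genes. With the block 4 of the RNAs passed, and 5207 of all genes. The 4 were Rny1 at -0.39 (adjusted p = 0.00651), Rny3 at -0.23 (adjusted p = 0.0284), Rmrp at 0.18 (adjusted p = 0.00371) and Rn7sk at -0.16 (adjusted p = 0.000356).

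The phenobarbital comparison asked whether 7 days of the drug changed these RNAs, and whether a change seen in one state was seen in the others. One of the 72 differences was called, a rise of Vaultrc5 in the heat-only libraries. In the heat-only state, with 5.03% of 13683 genes called, Vaultrc5 had 61.5, 98.9 and 115 CPM in 6 phenobarbital livers (lowest, median and highest) and 42.1, 45.0 and 69.4 CPM in 6 control livers. The phenobarbital library of animal 20D lay within the control range, and the other 5 lay above it. The log2 fold change was 0.94 ± 0.15 (adjusted p = 0.00151). It held in each of 12 fits that left out 1 animal, at 0.88 to 1.05 with adjusted p of 0.000164 to 0.00678. The same animals gave 0.17 ± 0.15 (adjusted p = 0.521) in frozen liver, 36.3, 48.8 and 66.6 CPM with phenobarbital and 33.0, 46.3 and 49.9 CPM in controls. In the other states the log2 fold change of Vaultrc5 was also above 0 and uncalled. It was 0.48 with PureLink catalyst, 0.15 with AllPrep catalyst, 0.39 with TAE, 0.46 in 3-month formalin, 0.21 in 18-hour formalin and 0.50 in ethanol. The states are portions of the same livers and not independent repeats. The test of the difference between the heat-only and frozen effects gave 0.76 ± 0.22 (adjusted p = 0.912) and 0.77 (adjusted p = 0.0704) with the animal as a block, so the heat-only rise was not shown to differ from the frozen one. Mitochondrially encoded genes took 10.8% ± 3.52 of the counts in phenobarbital and 5.82% ± 0.897 in control heat-only libraries (SD, n = 6 each). With these genes left out, the log2 fold change of Vaultrc5 was 0.95 (edgeR adjusted p = 0.00136). Leaving them out bears on the scaling alone, and the part of the mitochondrial share itself in the result was not tested. The summed level of the 6 hepatocyte markers ran from 19149 to 39524 CPM in phenobarbital and from 38112 to 50287 CPM in control heat-only libraries, with 2 of the 6 called lower, and its part in the result was not tested.

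No other difference between phenobarbital and control was called in edgeR. They ranged from -0.48 ± 0.44 (Rny3 in 18-hour formalin) to 0.73 ± 0.27 (Rny3 in ethanol). The share of all genes called was 9.43% of 13929 in frozen liver, 6.98% in ethanol, 4.88% in 18-hour formalin, 2.1% in 3-month formalin, 3.29% with TAE, 4.94% with AllPrep catalyst and 4.65% with PureLink catalyst. At an unadjusted edgeR p under 0.05, 0 of the 9 RNAs passed in frozen liver, 0 in 18-hour formalin and 0 in 3-month formalin. There passed 1 in ethanol, 1 with TAE, 1 with AllPrep catalyst, 3 with heat only and 3 with PureLink catalyst. Of all genes, 2585 of 13683 passed that cut with heat only and 2472 of 14311 with PureLink catalyst. In the other states between 1609 of 13018 (3-month formalin) and 3424 of 13929 (frozen liver) did. In frozen liver the 95% intervals were narrow for the abundant RNAs, -0.28 to 0.03 for Rpph1 and -0.36 to 0.01 for Rn7sk, and wider for Rny1, -0.43 to 0.69. In 3-month formalin the Rny1 interval ran from -0.47 to 1.47, an interval that holds both no difference and a 2-fold rise. Rn7sk was lower with phenobarbital in 7 of 8 states, from -0.27 ± 0.17 in 18-hour formalin to -0.04 ± 0.23 in 3-month formalin, and stood at 0.02 ± 0.15 with heat only. None of these passed in edgeR. DESeq2 called it in the AllPrep catalyst state (-0.28, adjusted p = 0.0309) and the PureLink catalyst state (-0.24, adjusted p = 0.00101). These are 8 portions of the same 12 livers and not independent repeats. Rpph1 with heat only stood at 0.54 ± 0.16 (adjusted p = 0.0766), and DESeq2 called it (0.53, adjusted p = 0.00577). Rprl3 stood at 0.44 ± 0.15 (adjusted p = 0.112). Of the partner lists, 1 gene of the polymerase III list was called, lower, in each of 4 states, and no other partner gene in any state. In the 7 tests of a change in the phenobarbital effect between a preserved state and frozen liver, 0% of genes were called, the 9 RNAs included, and their smallest adjusted p was 0.892. At an unadjusted p under 0.05 170 to 662 genes passed in edgeR, 3 of the 9 RNAs among them, all with heat only, and DESeq2 called 0 genes. With the animal as a block 9 of 14717 genes were called in the heat-only test, 0 of the RNAs described here among them. The block called 0 genes in the other tests of this kind. The smallest adjusted p of the 9 RNAs with the block was 0.0704.

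**Figure D5:**
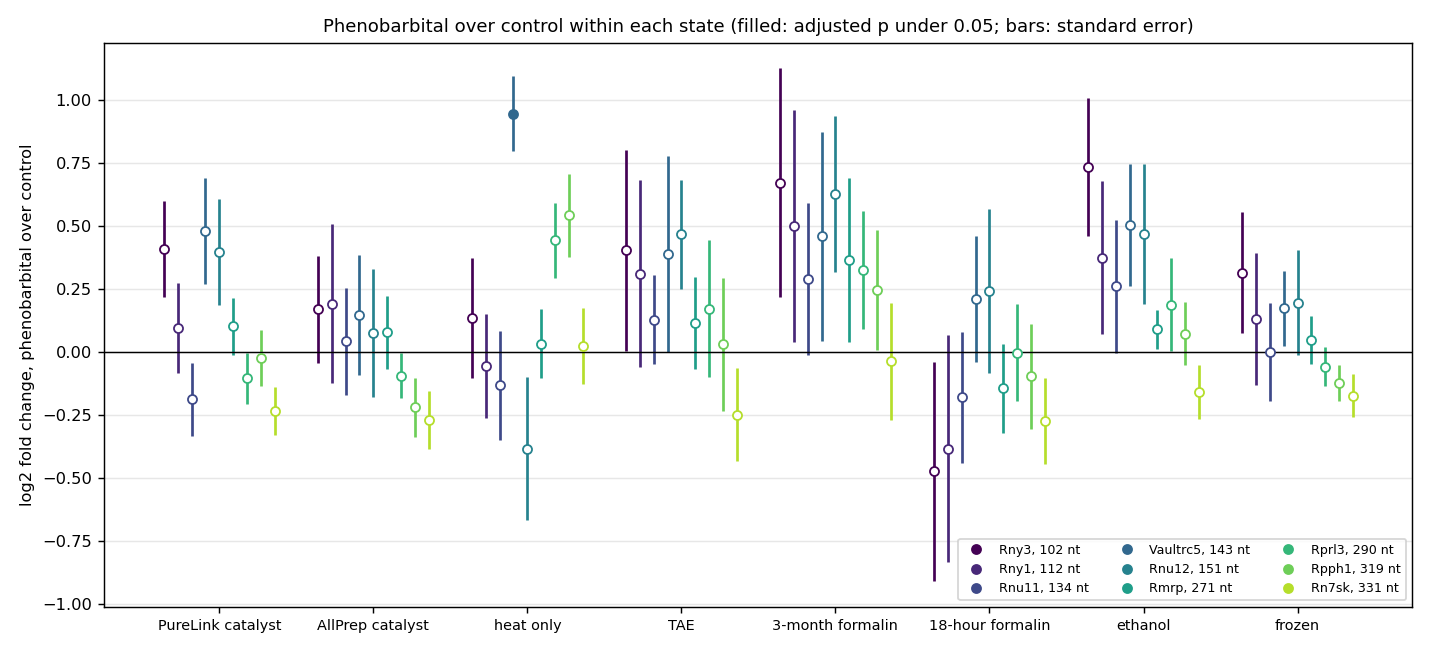
Log2 fold change of each RNA in 6 phenobarbital over 6 control livers within each state, with standard errors (filled points have an adjusted p under 0.05). Vaultrc5 with heat only, at 0.94, is the filled point.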

How the data were processed

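Gene counts came from 96 liver libraries of 12 mice in 8 states. Per the labels, ribosomal RNA was removed and the library kit keeps strand. CASAVA, STAR 2.5, edgeR, GRCm38 and mm10 appear, without roles, in the submitters' processing notes. How reads were counted (tool, annotation, strand) is not given in the sources used here. The deposited counts are whole numbers per Ensembl gene, with no normalization by the authors. Of 47465 lines 92 were spike-in controls, which held 110 counts and were left out. The deposited log2 values were not used.

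Symbols, lengths and coordinates came from GENCODE M21 on GRCm38, which held 46954 of the 47373 genes and all 9 RNAs. Tests used edgeR 4.0.16 (quasi-likelihood F test, TMM scaling, default low-count filter by group, Benjamini-Hochberg adjustment over all genes tested, threshold 0.05). States were compared with 12 libraries each and treatment as covariate, phenobarbital with control as 6 against 6 animals, and the interaction over 24 libraries. The state and interaction fits did not use the pairing of libraries by animal, which the fits with the animal as a block did. The standard error is the log2 fold change over the square root of F, and 95% intervals use it with the t quantile at the degrees of freedom of that test. CPM uses TMM factors over the 96 libraries, with a prior count of 2 for paired log2 differences. Titles carry the animal, which pairs the libraries: in 336 of 336 same-animal pairs deviations from group means correlated above 0.1 (median 0.669 over 10191 genes, against -0.116 for other animals). Deviations in a group sum to 0, so where same-animal pairs correlate the value for other animals falls below 0 by calculation. No 2 libraries held identical counts. Reads carry no molecular identifiers and may be PCR copies, so depth speaks to counting error alone. Fits were tested on simulated data.

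Alternatives were RLE scaling, library totals, no filter, DESeq2 1.42.0, the animal as a block, and, for phenobarbital, 12 fits that each omitted 1 animal. Omitting the shallowest library, the one with the highest share of its counts on the 9 RNAs, or mitochondrially encoded genes was chosen after seeing the data. The 9 RNAs and the lists of partner and marker genes were chosen with earlier results of these data known. The text names all 9 RNAs, and of each partner list at most 4 called genes with the largest change and 2 uncalled ones with the highest level, plus each RNA's 2 nearest genes by pattern.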

Additional observations from a re-analysis of the deposited data

Results flagged for a closer look

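In 9 of 144 sets of 6 libraries (9 RNAs in 16 groups), 1 library lay so far from the other 5 on the log2 scale that its gap took more than 0.625 of the whole range. Chance alone gives about 1 in 20. Rny1 in the AllPrep catalyst phenobarbital group stood at 14.9 CPM in animal 80B, against 4.00 to 6.23 CPM in the other 5. Rny3 in the AllPrep catalyst control group stood at 6.63 CPM in animal 8A, against 11.6 to 14.1 CPM in the other 5. Vaultrc5 in the frozen control group stood at 33.0 CPM in animal 8C, against 42.8 to 49.9 CPM in the other 5. Vaultrc5 in the heat-only phenobarbital group stood at 61.5 CPM in animal 20D, against 95.0 to 115 CPM in the other 5. Rnu11 in the ethanol control group stood at 2.07 CPM in animal 8A, against 3.42 to 4.47 CPM in the other 5. Rnu12 in the 18-hour formalin control group stood at 3.22 CPM in animal 8A, against 8.27 to 13.8 CPM in the other 5. Rnu12 in the heat-only control group stood at 30.0 CPM in animal 90C, against 9.34 to 14.4 CPM in the other 5. Rprl3 in the PureLink catalyst control group stood at 149 CPM in animal 8D, against 204 to 227 CPM in the other 5. Rprl3 in the 18-hour formalin phenobarbital group stood at 949.9 CPM in animal 20D, against 451 to 593 CPM in the other 5. Animal 8A gave 3 of the 9 as the lowest library.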

How the results depend on the processing

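The count of RNAs called stayed within 1.5 times its value in every state comparison under RLE scaling and without the low-count filter. Library totals alone gave 5 calls in place of 3 with heat only against frozen, while calls over all genes went from 7912 to 9271. With the animal as a block the calls were 9 in place of 5 in ethanol against frozen, 4 in place of 1 for AllPrep catalyst against heat only and 4 in place of 0 for PureLink against AllPrep catalyst. Over all genes the block moved the calls from 4561 to 7370, from 123 to 1930 and from 328 to 5207 in the same order. DESeq2 gave 2 calls for AllPrep catalyst against heat only and 1 for PureLink against AllPrep catalyst, with 370 and 961 over all genes. For phenobarbital it gave 2 with heat only, 1 with AllPrep catalyst and 1 with PureLink catalyst, with 1036, 1085 and 967 over all genes. Leaving out animals one at a time gave 0 to 1 calls for phenobarbital in 18-hour formalin, the 1 being Rn7sk without 20D (-0.46, edgeR adjusted p = 0.041). The block changed no other call than those given beside the results.

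Signs turned under library totals alone for small differences. Against frozen they became 0.0752 for Rmrp with TAE, 0.0771 for Rny3, 0.227 for Rnu12 and 0.133 for Rn7sk with heat only, 0.139 for Rpph1 and 0.118 for Rn7sk with AllPrep catalyst, and 0.215 for Vaultrc5, 0.131 for Rpph1, 0.238 for Rprl3 and 0.0565 for Rmrp with PureLink catalyst. They also became -0.0337 for Rn7sk in 3-month against 18-hour formalin, and -0.0154 for Rprl3 and -0.0142 for Rn7sk in AllPrep catalyst against heat only. The block turned Rprl3 with heat only against frozen to -0.00315. Rn7sk in 3-month against 18-hour formalin was 0.138 without the 3-month formalin library of 8A and turned, without that of 18B, to -0.0291. Rpph1 with TAE against 3-month formalin was 0.119 without 18B and turned, without 8A, to -0.0269. Of these only Rmrp with PureLink catalyst was called at first. After the turn, library totals called Rpph1 with AllPrep catalyst (edgeR adjusted p = 0.0425) and Rprl3 with PureLink catalyst (edgeR adjusted p = 0.00274) higher than frozen. In the phenobarbital and interaction tests 59 of 1539 values under alternatives changed sign, 0 of them called either way. Low counts limit Rny1, Rnu11 and Rnu12, and the shallow library of 8A limits 3-month formalin.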
